A study of Mus musculus with 8 samples.

Results

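The alpha-defensin genes of the mouse small intestine examined here were every row of the expression table called Defa followed directly by a number. This group was chosen with earlier results of these data known. They were Defa3, Defa17, Defa20, Defa21, Defa22, Defa23, Defa24 and Defa26, 8 of the 119 rows in the table. RNA-seq had been performed on whole tissue of the small intestine (SI) from C57BL/6 mice, all males by the study's methods, with 4 wild type (WT) libraries and 4 libraries of mice lacking Smarcad1 in the intestinal epithelium (KO). The KO mice carried loxP sites around 3 exons of Smarcad1, a chromatin remodeler, and a Cre transgene driven by the Villin promoter (Vil-cre), which is active in epithelial cells and leaves muscle, vessels and immune cells of the same tissue untouched. The floxed mice came from a single line (CE6), derived from 1 targeted embryonic stem cell clone. The ages and the Cre status of the WT mice were not given in the sources used here.

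Alpha-defensins, called cryptdins in the mouse, are short cationic antimicrobial peptides with 3 disulfide bonds. They are made in bulk by Paneth cells, secretory cells at the base of the small intestinal crypts, stored in granules and released into the crypt lumen, where they damage bacterial membranes. Mouse Paneth cells cleave the inactive precursors with the protease Mmp7, and Wnt signalling through TCF factors drives the Paneth cell program. The genes lie in tandem copies on chromosome 8, many of them close to identical, so that a short read can often be assigned to several of them. In whole tissue, fewer Paneth cells and less defensin RNA per Paneth cell cannot be told apart.

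The 8 genes lay on the plus strand within 710 kb of chromosome 8 (GRCm38) and each had 2 exons. From the proximal end, Defa21 was at chr8:21025545-21026516, Defa23 at chr8:21055047-21056016, Defa22 at chr8:21162277-21163249 and Defa3 at chr8:21287409-21288377. Further along came Defa20 at chr8:21509258-21510237, Defa26 at chr8:21618183-21618972, Defa17 at chr8:21655780-21656735 and Defa24 at chr8:21734494-21735471. The interval held 61 annotated genes, 28 of them protein-coding and 25 pseudogenes, and 15 of the 28 coding genes had a row in the table. Of the annotated genes, 22 were named Defa and a number, and 8 of these had a row under that name. Defa31, Defa34 and Defa35 had rows under other names. The table held only genes that the study had selected as different between KO and WT in these libraries, so the other 13 coding genes of the interval were not analysed here.

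The coding sequences ended in the part that encodes the mature peptide, which is shown because it sorts the genes into classes and shows how close the copies are. The last 93 to 99 coding bases of each gene are printed from the first cysteine codon to the stop codon, with the 6 cysteine codons (TGT or TGC, in frame) in capitals. In all 8 genes 1, 4 and 9 codons separated the first 4 cysteine codons, and the last 2 were adjacent. In Defa20, Defa21 and Defa22, 6 codons lay between the fourth and the fifth cysteine codon (short spacing):
Defa20: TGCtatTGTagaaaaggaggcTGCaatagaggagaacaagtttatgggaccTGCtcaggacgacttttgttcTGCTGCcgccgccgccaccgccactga
Defa21: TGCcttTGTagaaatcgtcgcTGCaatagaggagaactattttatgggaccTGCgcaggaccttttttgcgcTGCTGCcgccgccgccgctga
Defa22: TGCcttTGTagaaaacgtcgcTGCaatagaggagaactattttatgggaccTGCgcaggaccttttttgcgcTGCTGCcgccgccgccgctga

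In the other 5 genes, 9 codons lay between the fourth and the fifth cysteine codon (long spacing):
Defa24: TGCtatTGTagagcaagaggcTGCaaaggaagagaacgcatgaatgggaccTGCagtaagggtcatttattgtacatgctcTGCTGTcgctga
Defa3: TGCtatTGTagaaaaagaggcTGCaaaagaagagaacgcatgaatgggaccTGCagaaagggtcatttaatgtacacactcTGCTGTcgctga
Defa17: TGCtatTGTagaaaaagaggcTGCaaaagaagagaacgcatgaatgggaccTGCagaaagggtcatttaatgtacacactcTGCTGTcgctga
Defa26: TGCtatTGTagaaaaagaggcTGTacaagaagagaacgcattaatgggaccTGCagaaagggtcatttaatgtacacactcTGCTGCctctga
Defa23: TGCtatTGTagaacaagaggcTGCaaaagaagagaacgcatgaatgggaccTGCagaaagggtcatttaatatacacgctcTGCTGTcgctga

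Within a spacing class the whole coding sequences were 89.2% to 100% identical (median 95.7%, 13 pairs). Between the classes the identity was 80.7% to 83.7% (median 82.5%, 15 pairs). The coding sequences of Defa3 and Defa17 were identical, and Defa21 and Defa22 were 99.3% identical. A window of 50 bases of an annotated transcript was called unique when no other annotated gene held it. None of the 376 windows of Defa20 was unique, and 326 of them also occurred in Defa32. The unique share was 5.25% for Defa23, 7.76% for Defa3, 8.05% for Defa17, 25.1% for Defa22 and 27.1% for Defa21. It was 59.8% for Defa26 and 71.9% for Defa24. With windows of 100 bases it was 0.307% for Defa20, 9.40% to 13.2% for Defa17, Defa23 and Defa3, 59.6% for Defa21, 59.7% for Defa22, 98.9% for Defa26 and 100% for Defa24. Since the authors kept uniquely mapped reads, the level of a gene with few unique windows rests on a small part of its transcript, and reads of near-identical copies may have been dropped or split.

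RefSeq gave a promoter (build GRCm38.p6) for 4 of the 8 genes: Defa20, Defa21, Defa22 and Defa23. They are shown because levels of Defa21, Defa22 and Defa23 had a positive Pearson r with each other across libraries and a negative one with Defa20, as described later. No pair among these 4 genes passed the exact permutation test used there (smallest adjusted p = 0.0729, Defa22 with Defa23). The 130 bases just before the annotated start are printed, with the TCF/LEF core motif ATCAAAG and the TATA box TATAAA in capitals. Defa21 (chr8:21025415-21025544) and Defa22 (chr8:21162147-21162276) were identical over these bases and over the full 250 bases upstream, so 1 sequence stands for both. Defa20 (chr8:21509128-21509257) differed from them at 5 of 250 bases, and Defa23 (chr8:21054910-21055039) was 78.0% identical to them over 250 bases:
Defa21: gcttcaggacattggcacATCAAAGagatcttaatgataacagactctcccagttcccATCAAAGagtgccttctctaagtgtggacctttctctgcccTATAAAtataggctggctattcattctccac
Defa20: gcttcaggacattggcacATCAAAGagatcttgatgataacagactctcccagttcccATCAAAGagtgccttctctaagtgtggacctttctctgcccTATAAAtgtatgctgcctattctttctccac
Defa23: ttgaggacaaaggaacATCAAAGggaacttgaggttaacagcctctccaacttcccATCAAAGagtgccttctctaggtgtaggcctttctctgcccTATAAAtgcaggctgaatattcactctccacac

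Each of the 4 promoters held ATCAAAG on the forward strand at 2 positions, starting 112 and 72 bases upstream of the start in Defa20, Defa21 and Defa22 and 114 and 74 bases upstream in Defa23. TATAAA occurred once in each, 31 bases upstream, or 33 in Defa23, and overlapped neither copy. Among 32851 RefSeq mouse promoters of the same length, 3.21% held ATCAAAG on either strand at least once, 0.0822% held it at least 2 times, and 12.4% held TATAAA. A match of letters is a description and shows no bound factor.

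The RPKM values resolved into whole reads in 100% of entries, implying 56981717 to 78026423 mapped reads per library. Between 189558 and 329513 reads per library, or 0.269% to 0.470% of the mapped reads, lay in the 8 genes. Smarcad1, the targeted gene, averaged 0.334 RPKM (SD 0.0288) in the WT and 0.235 RPKM (SD 0.0308) in the KO libraries. Every KO library lay below every WT library, which gave p = 0.0286 in a two-sided exact permutation test, the lowest value possible with 4 libraries a side (exact permutation p = 0.0571 without WT 3). Of 5 Paneth cell markers listed for a check of the cell type, Ang4 and Itln1 were in the table, each higher in WT. None of the goblet, enterocyte, enteroendocrine, tuft, smooth muscle or immune cell markers had a row, 1 of 4 stem cell markers (Ascl2) did, and 2 of 5 pancreatic acinar markers did (Clps and Pnliprp2). The tissue could therefore not be checked against most of its markers.

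Levels are given in RPKM, reads per kilobase of genomic span, corrected for sequencing depth. The spans of the 8 genes were alike (790 to 980 bp), but their unique shares were not, so levels and folds between genes describe uniquely assigned reads rather than transcript amounts. The levels differed widely between genes, and the most abundant, Defa24, exceeded the least abundant, Defa23, 234-fold on the mean of 8 libraries. Defa24 had the highest mean RPKM of the 119 rows and Defa23 ranked 23rd, while the median row had 1.00 RPKM. The deposited RPKM counted introns in the length, which lowers intron-rich genes against these compact ones.

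Defa24 had 2209, 3006, 2563 and 3029 RPKM in WT 1 to 4 and 1712, 2136, 2542 and 1902 RPKM in KO 1 to 4. KO 3 lay within the WT range and the other 3 KO libraries below it. The mean fell from 2701 ± 392 to 2073 ± 357 RPKM (SD, n = 4 each), a change of -0.39 ± 0.15 (log2, SE, limma adjusted p = 0.0416). This was the weakest call among the 8 genes, and 6 of the 8 fits that left out 1 library gave an adjusted p of 0.0624 to 0.112. Its call was lost without WT 2, WT 3, WT 4, KO 1, KO 2 or KO 4. It was also lost with a pseudocount of 0.01 (limma adjusted p = 0.0558) and when rows with a mean RPKM below 0.5 were left out (limma adjusted p = 0.0533).

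Defa26 shared the long spacing with Defa24 but was far less abundant. It had 29.5, 38.8, 33.6 and 40.6 RPKM in WT 1 to 4 and 22.5, 26.5, 29.2 and 24.8 RPKM in KO 1 to 4. All KO values lay below all WT values, KO 3 narrowly so. The mean fell from 35.7 ± 5.05 to 25.8 ± 2.80 RPKM (SD, n = 4 each), by 0.46 ± 0.13 on the log2 scale (SE, limma adjusted p = 0.0106).

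Defa3 and Defa17, whose coding sequences were identical, had similar levels. Defa3 had 47.2, 70.8, 58.1 and 57.0 RPKM in WT 1 to 4 and 32.0, 46.5, 44.5 and 33.2 RPKM in KO 1 to 4. Defa17 had 38.3, 55.4, 44.3 and 44.6 RPKM in WT 1 to 4 and 27.3, 33.1, 31.1 and 23.4 RPKM in KO 1 to 4. In both genes WT 2 was the highest library, WT 1 the lowest of the WT, and no KO library reached WT 1. Defa3 changed by -0.58 ± 0.17 (log2, SE, limma adjusted p = 0.0106) and Defa17 by -0.67 ± 0.15 (limma adjusted p = 0.00400). The ratio of Defa3 to Defa17 was 1.28 ± 0.0331 in WT and 1.36 ± 0.125 in KO (SD, n = 4 each), with overlapping groups.

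Defa23 was the least abundant member of the long spacing class and of all 8 genes. It had 9.12, 16.0, 12.0 and 13.3 RPKM in WT 1 to 4 and 6.22, 9.67, 8.68 and 6.49 RPKM in KO 1 to 4. KO 2 lay just above WT 1, and the other KO libraries lay below every WT library. Its change was -0.69 ± 0.20 (log2, SE, limma adjusted p = 0.0106), the largest estimate among the 8. Its lowest value rested on 446 reads, a counting error of 4.74%, against a spread of 21.6% among the KO libraries. Counting error was therefore small beside the spread between libraries for Defa23, the gene with the fewest reads.

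Among the genes of short spacing, Defa22 was the most abundant, with 578, 795, 715 and 875 RPKM in WT 1 to 4 and 479, 564, 555 and 489 RPKM in KO 1 to 4. All KO values lay below all WT values, though KO 2 and WT 1 were close. The mean fell from 740 ± 127 to 522 ± 44.0 RPKM (SD, n = 4 each), by 0.49 ± 0.14 on the log2 scale (SE, limma adjusted p = 0.0106).

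Defa21, its close copy with the same promoter, had 434, 750, 558 and 664 RPKM in WT 1 to 4 and 414, 439, 389 and 299.9 RPKM in KO 1 to 4. KO 2 slightly exceeded WT 1, and the other 3 KO libraries lay below the WT range. The change was -0.63 ± 0.19 (log2, SE, limma adjusted p = 0.0119). Defa21 stood at 0.809 ± 0.0908 of the level of Defa22 in WT and at 0.739 ± 0.107 in KO (SD, n = 4 each), with overlapping groups.

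Defa20 had 82.7, 88.7, 79.8 and 84.1 RPKM in WT 1 to 4 and 66.2, 62.2, 55.2 and 73.5 RPKM in KO 1 to 4. The WT libraries were close together, with a coefficient of variation of 4.43% where the other 7 genes had 14.2% to 22.7%. All KO values lay below all WT values. The change was -0.39 ± 0.11 (log2, SE, limma adjusted p = 0.0106).

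**Figure D1:**
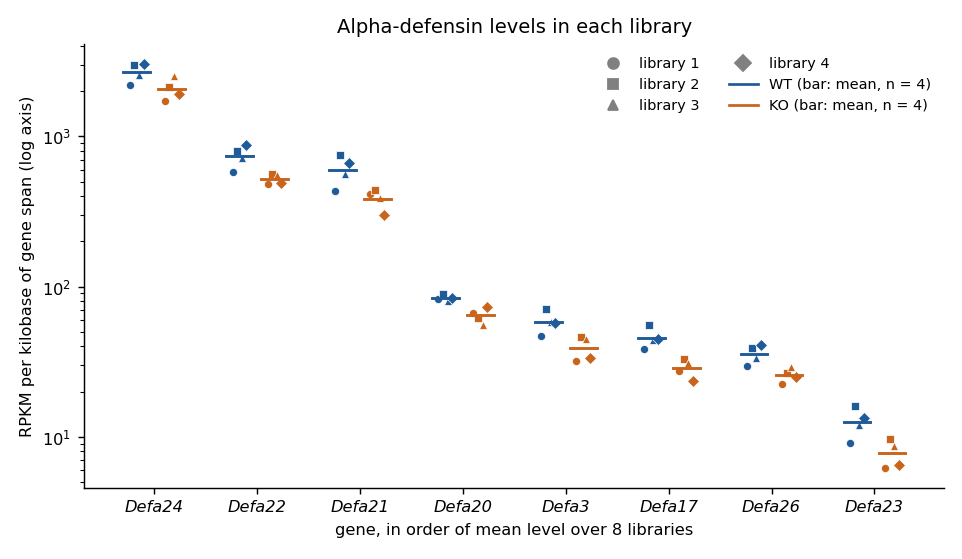
RPKM of the 8 alpha-defensin genes (log axis) in each of 4 WT (blue) and 4 KO (orange) libraries, with marker shapes for the library number and bars for the group means. Levels run from 6.22 RPKM (Defa23 in KO 1) to 3029 RPKM (Defa24 in WT 4), and in every gene the KO mean lies below the WT mean.

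Set against the table as a whole, 8 of the 8 genes had a lower mean in KO, where 50.4% of the 119 rows did. By limma, 8 of 8 had an adjusted p under 0.05 with a lower level in KO, where 30.3% of all rows did. The groups did not overlap in 5 of 8 (Defa3, Defa17, Defa20, Defa22 and Defa26), with KO lower, where this held for 22.7% of all rows. Without WT 1, or with libraries rescaled by the median of ratios, it held for 8 of 8, beside 32.8% of all rows without WT 1 and 43.7% after rescaling. These shares stand above the background of the table. The rows had been selected for a difference in these libraries, however, so the counts are not independent evidence of one. Nor do they describe all 22 annotated genes of the interval named Defa and a number. The table's calls were 36 lower among 94, and 57 lower among 114 after that rescaling. The rescaling takes most rows as unchanged, which rows selected for a difference do not meet. Its factors alone lowered KO against WT by 0.16 (log2, before 0.1 was added to the RPKM), so its count is no check of the difference. The median change of the 8 genes was -0.54 (log2, range -0.69 to -0.39), beside -0.07 over the 119 rows and -0.39 over the 60 rows with a lower mean in KO.

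By an exact permutation test on each row, adjusted over the 119 rows, 5 of the 8 passed (adjusted p = 0.0400), those with no overlap, and Defa21, Defa23 and Defa24 did not (adjusted p = 0.0694). By this test 22.7% of all rows passed with a lower level in KO and 71.4% passed in either direction. With 4 libraries a side only rows without overlap can pass it, so it repeats the count of non-overlap and adds no evidence. Those 3 genes overlapped through WT 1, which lay below KO 2 in Defa21 and Defa23 and below KO 3 in Defa24.

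**Figure D2:**
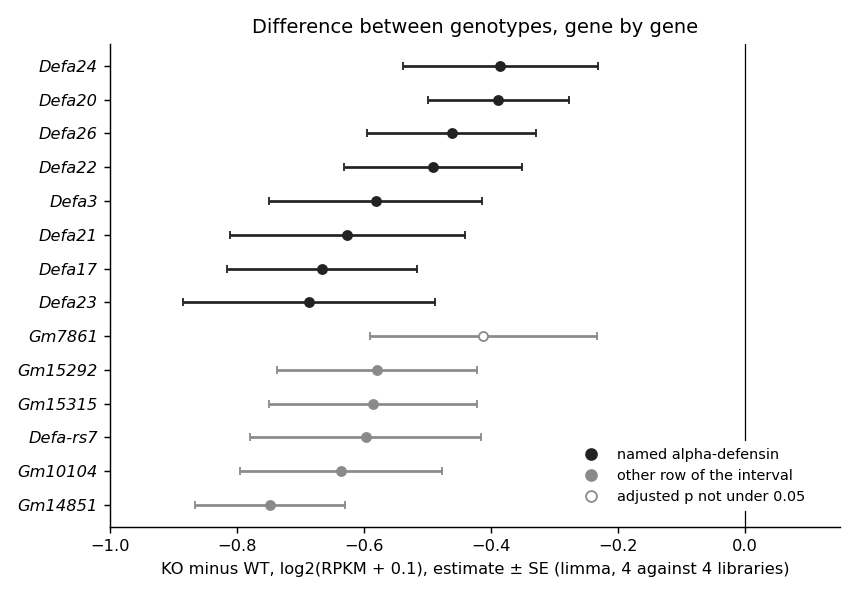
Difference between KO and WT on the log2(RPKM + 0.1) scale, as the limma estimate ± SE over 4 against 4 libraries, for the 8 named genes (black) and 6 other table rows of the same interval (grey). Estimates of the named genes run from -0.69 (Defa23) to -0.39 (Defa24), and the open symbol (Gm7861) is the gene with an adjusted p not under 0.05.

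The summed RPKM of the 8 genes was 3428, 4820, 4063 and 4807 in WT 1 to 4 and 2760, 3317, 3655 and 2853 in KO 1 to 4. KO 3 exceeded WT 1, and the other KO libraries lay below all WT libraries. The sum was 4279 ± 669 in WT and 3146 ± 418 in KO (SD, n = 4 each), 26.5% lower in KO. It was dominated by Defa24. Without Defa24 the sum fell from 1578 ± 278 to 1073 ± 98.2 RPKM with no overlap, 32.0% lower in KO. By class, the 3 genes of short spacing summed to 1426 ± 256 RPKM in WT against 972 ± 84.9 in KO, with no overlap. The 5 of long spacing summed to 2854 ± 413 and 2175 ± 370 RPKM, with overlap (SD, n = 4 each).

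The makeup of this signal was described as the share of each gene in the sum. Defa24 made up 63.2% ± 0.874 in WT and 65.7% ± 3.21 in KO, Defa22 17.3% ± 0.767 and 16.7% ± 1.01, and Defa21 13.9% ± 1.19 and 12.4% ± 2.17 (SD, n = 4 each). The other 5 genes together supplied the small remainder, from 1.99% ± 0.295 in WT for Defa20 to 0.292% ± 0.0285 for Defa23. The share of every gene overlapped between WT and KO, so that no gene's part in the sum separated the genotypes.

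The rank order of the 8 levels was the same in 7 of the 8 libraries: Defa24, Defa22, Defa21, Defa20, Defa3, Defa17, Defa26 and Defa23. In KO 4, Defa26 (24.8 RPKM) stood above Defa17 (23.4 RPKM). Of the 7 adjacent pairs in the order, 6 kept it in each library. The widest steps were from Defa21 to Defa20, 2.70 ± 0.34 on the log2 scale of the ratio within a library (SD, n = 8), from Defa24 to Defa22 (1.93 ± 0.12) and from Defa26 to Defa23 (1.63 ± 0.22). The levels of the genes on the 2 sides of these steps did not overlap over the 8 libraries.

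The remaining steps were narrow. Defa20 exceeded Defa3 by 0.63 ± 0.33, Defa3 exceeded Defa17 by 0.39 ± 0.10, and Defa22 exceeded Defa21 by 0.38 ± 0.19 (log2 ratio within a library, SD, n = 8). Defa17 exceeded Defa26 by 0.25 ± 0.20, with 1 library the other way, so these neighbours are not separated in every library. Over all libraries the ranges of both genes overlapped in each of these 4 pairs. Dividing the reads by annotated exon length, 41.5% to 47.1% of the span, gave the same order of means. On that scale Defa17 and Defa26 averaged 89.5 and 65.2 RPKM per kilobase of exons over 8 libraries, and all 7 pairs kept their order in each library.

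The unique share of the transcript moved with these levels in part. The 3 most abundant genes had 59.6% to 100% unique windows of 100 bases. Of the 5 less abundant genes, 4 had 0.307% to 13.2%. Defa26 did not follow, with 98.9% unique windows and the second lowest level. The part of read assignment in the order was not tested.

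**Figure D3:**
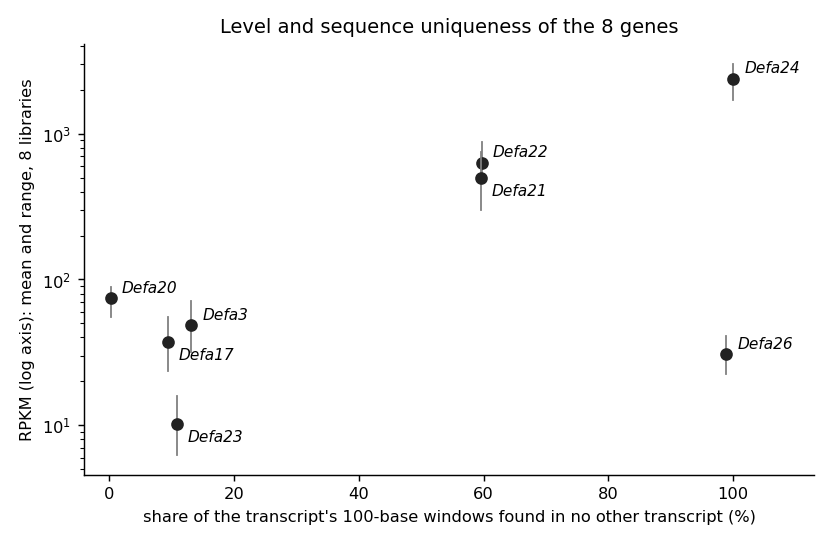
Mean RPKM over 8 libraries (points, log axis) with the range (lines) of each gene, against the percent of its 100-base transcript windows found in no other annotated gene. Defa24, Defa22 and Defa21 are high on both axes, Defa26 combines 98.9% unique windows with a low level, and the other 4 genes have few unique windows.

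Co-variation was examined after removing the mean of each genotype from log2(RPKM + 0.1), so that the difference between KO and WT could not enter it. WT 1 was the lowest WT library in 7 of the 8 genes, the exception being Defa20. The highest WT library was WT 4 in Defa22, Defa24 and Defa26 and WT 2 in the other genes. The highest KO library was KO 3 in Defa24 and Defa26, KO 4 in Defa20 and KO 2 in the other genes. Averaged over the 8 genes, the departures were -0.29 in WT 1, 0.23 in WT 2, -0.05 in WT 3 and 0.11 in WT 4. In KO 1 to 4 they were -0.13, 0.15, 0.12 and -0.14.

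**Figure D4:**
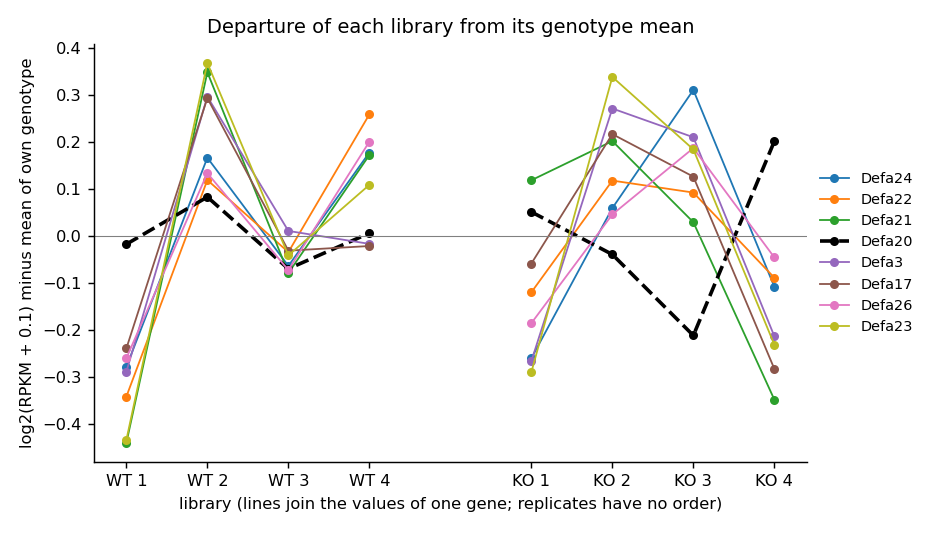
Departure of each library from the mean of its genotype, log2(RPKM + 0.1), for the 8 genes. In WT 1 the other 7 genes lie between -0.44 and -0.24, while Defa20 (black, dashed) lies between -0.07 and 0.08 in all WT libraries and is the lowest gene in KO 3 and the highest in KO 4.

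Over the 28 pairs of genes the median Pearson r of these departures was 0.75 (8 libraries) and the median Spearman rho was 0.75. The 21 pairs without Defa20 all had a positive r, from 0.59 to 0.97 with a median of 0.83. The 7 pairs with Defa20 all had a negative r, from -0.44 to -0.15, but their Spearman rho ran from -0.33 to 0.12 (median -0.14), and none passed the permutation test described next. As a description, the median over all 7021 pairs of the 119 rows was 0.19, and 8.02% of them exceeded the median of the 28. Among the 2926 pairs of rows with a mean RPKM of at least 0.5, the median was 0.29 and 11.7% exceeded the median of the 28. The points shared library, depth and the sampled piece of tissue.

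Only 2 pairs passed an exact permutation test within genotypes (two-sided, adjusted over 28 pairs): Defa24 with Defa26 (r = 0.97, p = 0.00174, the smallest that these permutations can give, adjusted p = 0.0486) and Defa22 with Defa26 (r = 0.93, p = 0.00347, adjusted p = 0.0486). Their Spearman rho was 0.95 and 0.90, and no pair passed on rho (exact permutation, smallest adjusted p = 0.0810). Without the 2 libraries farthest from the median of the first gene the same 2 pairs had r of 0.98 and 0.88. Defa3 with Defa23 reached r = 0.97 (exact permutation, adjusted p = 0.0567), and Defa3 with Defa17, the identical coding pair, r = 0.92 (exact permutation, adjusted p = 0.0694). Defa21 with Defa22, the pair with 1 promoter sequence, had r = 0.79 (exact permutation, adjusted p = 0.109).

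**Figure D5:**
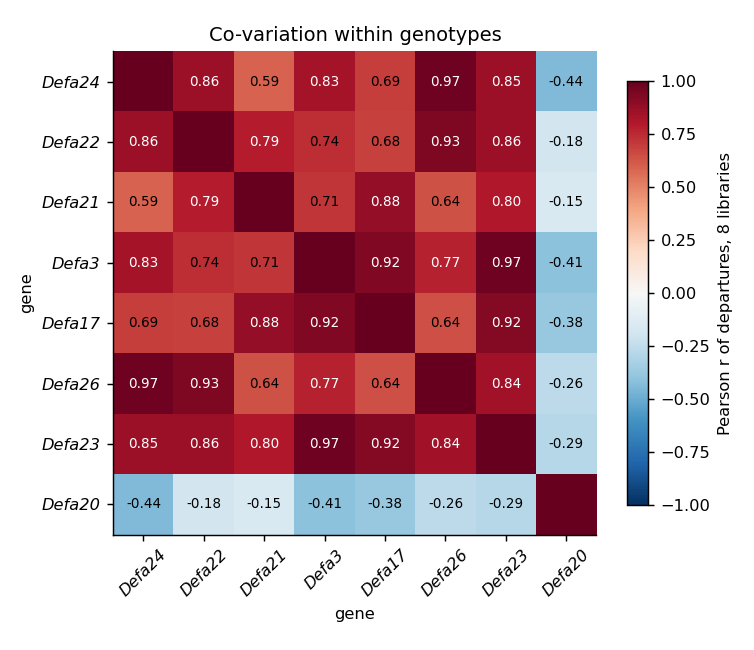
Pearson r between the departures of each pair of genes from their genotype means over 8 libraries (red positive, blue negative), with Defa20 placed last. The 21 pairs among the other 7 genes lie between 0.59 and 0.97, and the 7 pairs with Defa20 between -0.44 and -0.15.

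The pattern was also set against sequence. Leaving out Defa20, the 11 pairs of the same spacing class had a median r of 0.84 and the 10 pairs of different classes one of 0.77, with overlapping ranges (0.64 to 0.97 and 0.59 to 0.93). Defa20 was the gene with no unique 50-base window, and it had 3295 to 5796 reads per library. The part of read assignment in its pattern was not tested. Without the 2 libraries farthest from the median of Defa20, its r with Defa21, Defa22, Defa23, Defa24 and Defa26 was 0.14 to 0.51, so that the negative sign of these pairs rested on those 2 libraries. For the pairs with Defa3 and Defa17, the 2 libraries left out were those farthest from the median of Defa3 or of Defa17. Their r was then -0.76 and -0.45. Because other libraries were left out, these 2 values cannot be compared with the 5 above. They do not show whether the negative sign holds without the 2 libraries farthest from the median of Defa20.

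The 5 rows outside the group whose departures were most like the mean of the 8 genes were Clps (r = 0.95), Defa-rs7 (r = 0.91), Gm14851 (r = 0.90), Gm15292 (r = 0.89) and Pnliprp2 (r = 0.88), each over 8 libraries and picked from 111 rows. Of these, 3 lay in the defensin interval. Defa-rs7 is annotated as Defa31, which held 328 of the 362 windows of 50 bases of Defa23. Gm15292 held 99 of the 323 such windows of Defa26. The part of shared sequence in these r values was not tested. Clps encodes colipase and Pnliprp2 a relative of pancreatic lipase, and both stood on the list of pancreatic acinar markers. Clps averaged 25.9 ± 3.81 RPKM in WT against 18.9 ± 2.81 in KO (SD, n = 4 each), with KO 2 above WT 1. Its change was -0.46 ± 0.15 (log2, SE, limma adjusted p = 0.0166). Pnliprp2 changed by -0.62 ± 0.18 (limma adjusted p = 0.0106) with no overlap. Clps and Pnliprp2 summed to 26.2 to 37.1 RPKM in the WT and 20.1 to 27.0 RPKM in the KO libraries. The other 3 acinar markers of the list, Cela1, Prss2 and Cpa1, had no row, and the part of pancreatic RNA in the defensin values was not tested.

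For 6 further rows of the table in the interval, the mean was lower in KO in all 6. By limma 5 of them passed with a lower level, and the groups did not overlap in 4. The median change of the 6 was -0.59 (log2), close to that of the named genes. Gm14851 was the most abundant, averaging 155 ± 17.6 RPKM in WT against 91.9 ± 7.72 in KO (SD, n = 4 each), a change of -0.75 ± 0.12 (log2, SE, limma adjusted p = 0.000650). Gm15315 (Defa34) stood at 93.7 ± 12.8 and 63.0 ± 13.9 RPKM, and Gm15292 at 21.3 ± 4.78 and 14.0 ± 0.865 RPKM. The row that did not pass, named after its value was seen, was Gm7861, with means of 7.78 ± 1.98 and 5.69 ± 0.533 RPKM in WT and KO (limma adjusted p = 0.0560).

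These neighbours did not all share the pattern across libraries. The correlation with the mean departure of the 8 genes ran from 0.20 for Gm10104 to 0.91 for Defa-rs7 over these 6 rows. Gm10104 (Defa35), named after its values were seen, had 7.19, 4.68, 6.71 and 6.23 RPKM in KO 1 to 4. It was highest in KO 1 and lowest in KO 2, whereas KO 2 or KO 3 was the highest KO library of 7 named genes. Its r with Defa20 was 0.09.

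Of 29 genes listed for Paneth cells, 3 had a row: Itln1, Ang4 and Defa-rs7 (Defa31), the last also counted above among the rows of the interval. All 3 were lower in KO and passed the limma test, in a table selected for such differences. Itln1, which encodes the lectin intelectin, averaged 109 ± 10.8 RPKM in WT against 85.2 ± 14.0 in KO (SD, n = 4 each, limma adjusted p = 0.0301), with KO 3 (105 RPKM) inside the WT range as for Defa24. Ang4, an antimicrobial ribonuclease of Paneth cells, had 40.9 ± 5.42 and 30.3 ± 3.36 RPKM (SD, n = 4 each, limma adjusted p = 0.0125) with no overlap. Their departures had r of 0.68 and 0.74 with the mean of the 8 defensins. Lyz1, Mmp7 and the other 24 listed genes had no row under these names. They were thus not among the genes that passed the study's threshold in these libraries, and their levels were not analysed here. The paper names Itln1, Ang4, Defa22 and Defa26 among innate immunity genes that differed across its datasets, mostly upward in KO. Itln1 is listed there as raised repeatedly, in sorted small intestinal cells and in organoids, samples not analysed here.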

How the data were processed

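RNA-seq of whole small intestinal tissue was available for 4 WT and 4 KO mice, grouped by their genotype labels and numbered 1 to 4. The authors trimmed reads with Trim Galore 0.4.1, mapped them to GRCm38 with HISAT2 2.0.1, kept uniquely mapped reads, counted them over transcripts in SeqMonk and tested counts with DESeq2. The library kit and read length of these libraries are not given in the sources used here. The authors deposited RPKM per library for the 119 genes that passed their FDR threshold, with their group means and DESeq2 FDR, which were not used. All 8 columns of library values were used. The RPKM values resolved into whole reads (within 0.05 of a read) per kilobase of genomic span. They were therefore used per span, and depth was taken from them. Raw counts were not used here.

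Each row was compared between genotypes as log2(RPKM + 0.1) in limma 3.58.1 in R 4.3.3 (group as the only term, two-sided, Benjamini-Hochberg over 119 rows, threshold 0.05). A change on this scale understates that of low rows. The same rows had been selected by the authors on these libraries, so a call is not independent evidence. No source stated that the libraries came from separate litters or days, and p-values measure the spread between these samples. Smarcad1 was compared by an exact permutation test. Correlations used departures from genotype means, with exact permutations within genotypes. Scripts were tested on simulated data. Counting errors cover counting only, while SD and SE values measure the spread between libraries.

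Gene models were those of GENCODE mouse release 21, in which all 8 genes had the table's coordinates, and promoters those of RefSeq GRCm38.p6. Members, gene lists and tests were chosen with earlier results of these data known. The genes named were the 8 members, Smarcad1, the 5 other rows most like the mean of the members, and rows of the interval and of the Paneth cell list, with values for the most abundant. Of these, 1 gene is not reported here. Alternatives were other pseudocounts, an intensity trend, leaving out rows with a mean RPKM below 0.5, voom on the recovered reads, an exact permutation test per row, median-of-ratios scaling, the replicate number as a block, medians, exon lengths and leaving out each library.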

Additional observations from a re-analysis of the deposited data

Results flagged for a closer look

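Among 40 groups of 4 libraries examined (RPKM and shares of each gene, the sum, Smarcad1 and the ratios of Defa21 to Defa22 and of Defa3 to Defa17), 3 held a library far from the other 3, where chance gives about 2. The gap to the nearest library, as a part of the group's range, is given for each and exceeded Dixon's critical value for 4 samples. The ratio of Defa3 to Defa17 was 1.17 in KO 1, beside 1.40 to 1.43 in the other KO libraries (gap 0.890). The ratio of Defa21 to Defa22 was 0.944 in WT 2, beside 0.752 to 0.781 in the other WT libraries (gap 0.851). The share of Defa22 in the summed RPKM was 15.2% in KO 3, beside 17.02% to 17.4% in the other KO libraries (gap 0.846). The pairs Defa3 and Defa17, and Defa21 and Defa22, are near-identical copies. The part of read assignment in these values was not tested.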

How the results depend on the processing

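The 8 genes stayed lower in KO in all 96 recomputed changes (pseudocounts, scaling, block and leaving out each library), 89 of them past the threshold, and the 7 that were not all concerned Defa24. The count of genes past the limma threshold was 8 (36 of 119 rows were called lower), and 5 by the exact permutation test per row (27 of 119 rows). The permutation test can pass only rows whose groups do not overlap. Leaving out 1 library gave 7 to 8 (29 to 42 of 119 rows), and a pseudocount of 0.01 (36 of 119 rows) or a minimum mean RPKM of 0.5 (28 of 77 rows) gave 7. The count of genes whose groups did not overlap was 5, rose to 8 under median-of-ratios scaling, and ranged from 5 to 8 when 1 library was left out, reaching 8 without WT 1. Over all 119 rows the same count was 27, 52 under that scaling, and 27 to 39 when 1 library was left out. The scaling lowered KO against WT by 0.16 on the log2 scale and moved the median change of the 8 genes from -0.54 to -0.69. The KO to WT ratio of Smarcad1 was 0.705 and ranged from 0.664 to 0.734 when 1 library was left out (exact permutation p = 0.0571 without WT 3). The KO to WT ratio of the summed RPKM was 0.735 and stayed between 0.658 and 0.767 under the alternatives. The median correlation of 0.75 ranged from 0.59 (without WT 1) to 0.84.

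Same-numbered WT and KO libraries did not deviate together over the 77 rows with a mean RPKM of at least 0.5 (r of 0.27, 0.21, -0.11 and -0.03 for numbers 1 to 4), and 1 of 4 WT libraries correlated best with its own number. So few libraries and selected rows cannot show whether same-numbered mice were matched, and the number was not used as a pairing in the main fit. With the replicate block, 8 of the 8 genes passed and 90 of the 119 rows were called, beside 94 without it. Since the table holds selected rows only, scaling factors and spreads rest on 119 genes. The premise of the median-of-ratios scaling, that most rows are unchanged, is not met by them. Levels of near-identical copies remain uncertain at any depth.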
